A study of Arabidopsis thaliana with 32 samples.

Results

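Recovery from heat was followed in Arabidopsis shoots over the interval from 1 h to 3 h after the plants left the heat. Gene expression was compared between 2 arrays of shoots with 3 h of recovery and 2 arrays of shoots with 1 h of recovery, chosen by the sample titles from 32 arrays in all. Every probe set for a gene was considered: 22746 were on the table and 16782 passed a filter on low signal and were tested. The seedlings, of the Col-0 accession, grew at 24 °C on Murashige and Skoog medium in 16 h days. Both groups were heated to 38 °C for 3 h on day 16 and then returned to 25 °C. The heat began after 3 h of light, so the 3 h group was harvested after 9 h of light and the 1 h group after 7 h. Time since the heat and time of day therefore cannot be told apart in this comparison, and no unheated plants were analysed here. Roots of the same 2 times (2 arrays each) and shoots after 3 h of heat, 9 h of recovery and 21 h of recovery (2 arrays each) are given beside the shoots. The labels do not say whether the 2 arrays of a group came from separate cultures. The spread behind the p-values is that of arrays inside their groups, pooled over all 16 groups of the 32 arrays. That spread may be technical variation.

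Plants answer heat by making molecular chaperones, proteins that hold or refold other proteins that have lost their shape. Small heat shock proteins bind unfolding proteins, HSP70 proteins refold them with the help of co-chaperones, and chaperonins fold them inside a barrel. These transcripts are known to be made in large amount during heat and to decay when it ends. Growth needs new ribosomes, which are assembled in the nucleolus by many factors that process ribosomal RNA and join it to ribosomal proteins.

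The arrays report MAS5 signal, a linear intensity scaled by the authors so that each array had the same trimmed mean. Differences below are on the scale of log2(signal + 10.7), which makes the change of dim genes look smaller than it was. Calls were made where limma's adjusted p was below 0.05 and the log2 difference was at least 1 in size. The 2 arrays with 3 h of recovery correlated at 0.99 and the 2 with 1 h at 0.987 over log2 signal, while an array of one time correlated with one of the other at 0.943 to 0.946. The summed signal of 4 markers of green tissue (LHCB4.1, LHCB4.2, RCA and PRK) was 14707 and 14498 at 3 h, against 17776 and 17966 at 1 h in shoots, against at most 575 on the 4 root arrays. The summed signal of 4 root markers (EXPA7, EXPA18, PYK10 and PER71) was at least 2154 on the root arrays. In shoots it was 436 and 246 at 3 h, against 300.5 and 430.3 at 1 h. PYK10, with 1837 to 3074 in roots, made up most of that sum. EXPA7 and EXPA18 reached 23.5 and 21.5 in shoots and began at 30.1 and 23.5 in roots. Only 4 of 23 listed markers of green tissue and 4 of 20 of roots had a named probe set.

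Controls of the array for ribosomal RNA differed between the groups. The signal for 25S ribosomal RNA was 1308 and 1269.5 at 3 h of recovery and 249 and 156 at 1 h. It also differed inside a group: at 9 h of recovery it was 1270.3 on replicate 1 and 88.6 on replicate 2. The signal for 5S ribosomal RNA went the other way. It was 49.7 and 64.5 at 3 h, 131 and 143 at 1 h, and 44.1 and 92.0 on replicates 1 and 2 of 9 h. The actin 3′ to 5′ signal ratio was 10.4 and 7.03 at 3 h, against 6.86 and 7.60 at 1 h, and 9.28 and 3.88 on those 9 h arrays. Some genes moved with the 25S signal, so 2 further values are given beside the gene groups with calls. The first is the difference between the 2 arrays of 9 h, which share tissue and time. The second is a fit in which the log2 25S signal of each array was a covariate, an alternative chosen after seeing the data, whose slope rests largely on those 2 arrays. The part of the 25S signal in the results was not tested. In such bulk samples, fewer cells of a type and less RNA per cell cannot be told apart.

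Between 3 h and 1 h of recovery in shoots, 513 probe sets were higher (3.06% of those tested) and 431 were lower (2.57%). The median log2 difference over all 16782 was 0.02. With the 25S covariate 358 were higher and 438 lower, of which 296 and 361 were among those called without it. Of the 944 called in either direction (5.63%), 459 had 1 named gene, 237 higher and 222 lower. Transcripts of some chaperones and co-chaperones, among them 6 of 10 small heat shock proteins and 9 of 21 co-chaperones and heat partners, and of 31 of 54 factors that build ribosomes were lower at 3 h. Transcripts of cold-regulated genes, of some growth-related genes, of vesicle coats and of some plastid genes were higher, but the calls of those plastid genes and of 5 of the 8 vesicle coat genes were lost with the 25S covariate.

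**Figure D1:**
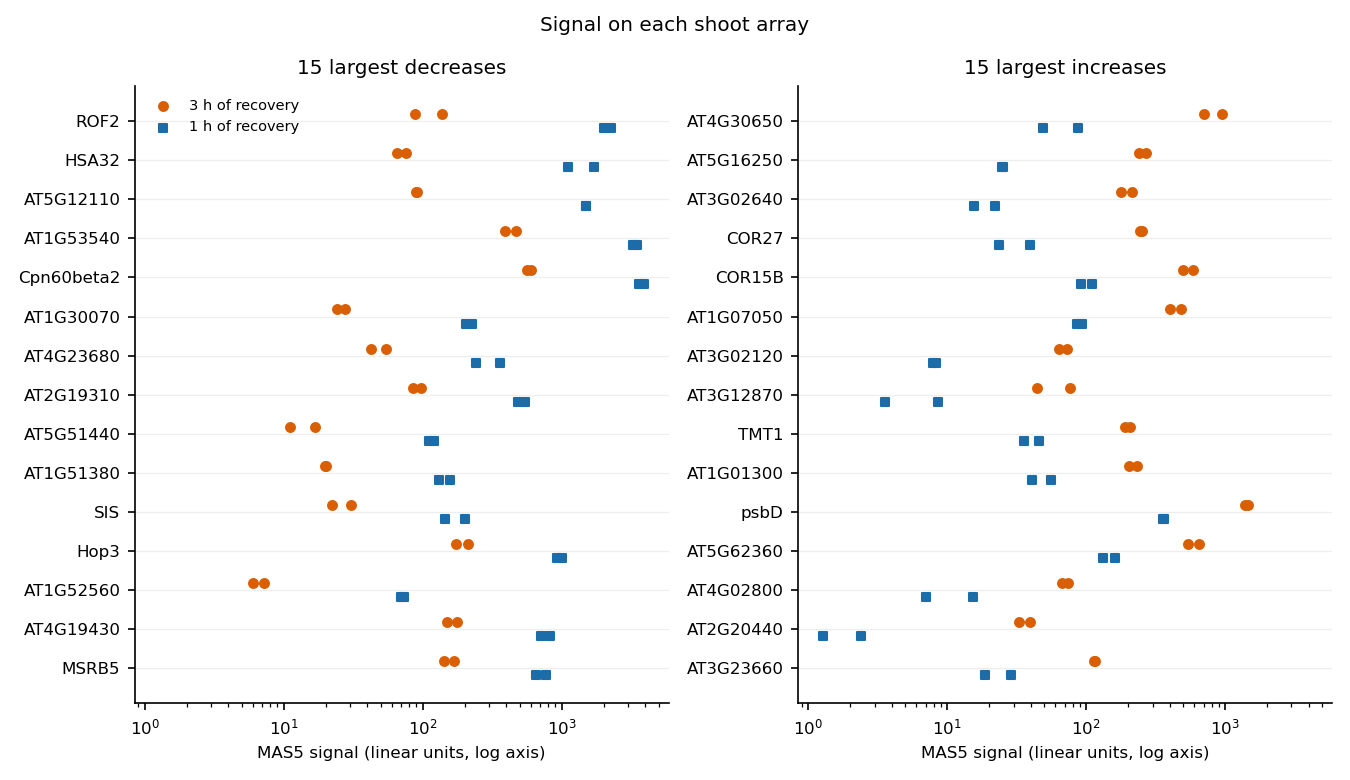
MAS5 signal (linear units on a log axis) of the 15 largest decreases and the 15 largest increases in shoots on each array, with circles for the 2 arrays of 3 h of recovery and squares for the 2 of 1 h. These genes were picked among called probe sets whose 2 times do not overlap. The row marked ROF2 is AT5G48570.

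The largest decrease was that of AT5G48570, listed with the synonym ROF2, a peptidyl-prolyl isomerase that binds HSP90. Its signal was 87.3 and 138 at 3 h of recovery, against 2267 and 2025 at 1 h. The 3 h arrays lay far below the 1 h arrays, and the log2 difference was -4.16 ± 0.22 (SE; limma adjusted p = 1.22e-12). HSA32, which is needed for lasting heat tolerance in Arabidopsis, had 76.1 and 65.6 at 3 h, against 1705 and 1105 at 1 h (log2 difference -4.09 ± 0.24, adjusted p = 4.06e-12). Over the shoot series HSA32 averaged 4146 ± 11.9 at 3 h of heat, 1405 ± 424 at 1 h of recovery, 70.9 ± 7.39 at 3 h, 158 ± 63.4 at 9 h and 61.5 ± 7.57 at 21 h (SD, n = 2 each). The log2 difference between 3 h and 21 h of recovery was 0.18 and did not pass the test (adjusted p = 0.589). Both genes also fell in roots, with log2 differences of -3.16 for AT5G48570 and -3.33 for HSA32, and the difference between tissues was not called for either.

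HSA32 and AT5G48570 belong to the list of co-chaperones and heat partners. Of its 21 tested genes, 9 fell and 0 rose (2.57% and 3.06% over all probe sets), with a median log2 difference of -0.60. Without 3 members that had been recognised among the called genes before the list was written, 6 of 18 fell. Hop3, which passes client proteins between HSP70 and HSP90, had 174 and 211 at 3 h, against 922 and 1013 at 1 h (log2 difference -2.27). AT1G30070, one of the members recognised beforehand, had 24.3 and 27.7 at 3 h, against 205 and 226 at 1 h (-2.62). The 3 h arrays lay below the 1 h arrays in both, which came with every called decrease and adds nothing to the call. In roots 9 of the 21 fell (2.06% of all probe sets). The tissue difference was called for 3 of the 21, all with the higher log2 difference in shoots (2.6% of all probe sets). With the 25S covariate it was called for 2 with the higher and 1 with the lower. The list's median difference between the 9 h arrays was 0.27. With the 25S covariate the same 9 genes were called in shoots, and with a constant of 42.9 in place of 10.7 the count was 5.

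Small heat shock proteins fell as well. Of 18 loci listed, 10 had a named probe set and all 10 were tested: 6 fell, 0 rose, and the median was -1.85. The shares over all probe sets were 2.57% lower and 3.06% higher. AT1G53540, a cytosolic member, had 393 and 468 at 3 h, against 3265 and 3477 at 1 h, with a log2 difference of -2.94 ± 0.31 (adjusted p = 7.08e-08). Its log2 difference in roots was -2.76, and the shoot minus root difference of -0.19 did not pass the test (adjusted p = 0.806). AT2G29500, also cytosolic, had 900.3 and 931 at 3 h, against 3545 and 3662 at 1 h (-1.96). ATHSP22.0, which resides in the endoplasmic reticulum, had 1293 and 1292 at 3 h, against 4513 and 4192 at 1 h (-1.74). At 3 h these 3 genes were above their level at 21 h of recovery, by log2 differences of 3.37, 4.53 and 5.25, all called. AT5G51440, a member of mitochondria, had 11.0 and 16.7 at 3 h, against 110.5 and 119.8 at 1 h (-2.37), and its difference from 21 h was -0.33, which was not called. AT1G52560 had 7.24 and 6.04 at 3 h, near the added constant, and 69.2 and 73.6 at 1 h (-2.24). AT2G19310 had 84.5 and 97.8 at 3 h, against 548 and 482 at 1 h (-2.37) and was lower at 3 h than at 21 h (-1.39). The other 4 genes were not called. AT4G21870 lay just under the threshold of size (adjusted p = 0.000656), with 201 and 247 at 3 h, against 529 and 393 at 1 h.

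On the 9 h arrays the median log2 difference of the small heat shock proteins, replicate 1 (high 25S) minus replicate 2, was 0.82, the opposite sign to that between the times. With the 25S covariate all 10 were called lower, with a median of -2.28.

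Among HSP70 proteins 2 of 4 tested genes fell. AT4G16660, a relative of HSP70 in the endoplasmic reticulum, had 62.7 and 61.7 at 3 h, against 171 and 166 at 1 h (log2 difference -1.30, adjusted p = 3.72e-09). Hsp70-2 had 6.35 and 3.10 at 3 h, against 28.0 and 15.6 at 1 h (-1.05), signals near the added constant, and its call was lost without replicate 2 of 3 h (-0.90) and without replicate 1 of 1 h (-0.78). On the 9 h arrays Hsp70-2 had 27.1 and 4.22, a log2 difference of 1.34, and with the 25S covariate it was at -1.89 and called. The call of AT4G16660 was also kept, at -1.39, and the list's median on the 9 h arrays was 0.41. AT3G09440, a cytosolic member, averaged 2477 ± 323 at 3 h of heat (SD, n = 2), and was 31.4 and 29.5 at 3 h of recovery, against 33.5 and 29.2 at 1 h. That level lay below the 187 and 227 of 21 h of recovery (log2 difference, 3 h minus 21 h, -2.40). AT1G11660 had a difference of -0.31.

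Chaperonins of plastids and mitochondria gave 1 decrease among 5 tested genes. Cpn60beta2, a subunit of the plastid chaperonin that folds Rubisco, had 565 and 599 at 3 h, against 3611 and 3927 at 1 h (log2 difference -2.67 ± 0.11, adjusted p = 3.61e-14). Its relatives Cpn60beta3 and Cpn60beta4 differed by -0.41 and 0.16 and were not called, nor were AT1G23100 (-0.73) and AT3G60210 (-0.23). AT1G23100 differed by 0.55 between the 9 h arrays and was called with the 25S covariate (-1.09), which gave 2 decreases with Cpn60beta2 (-2.86), and the list's median on the 9 h arrays was 0.11. Of 12 tested genes for folding and degradation in the endoplasmic reticulum, 1 fell. This was ATERDJ3B, a J-domain partner of the HSP70 there, with 159.9 and 164 at 3 h, against 412 and 455 at 1 h (-1.36 ± 0.08, adjusted p = 1.37e-11). OS9, DER2.1 and CRT1b had differences of -0.57, -0.41 and -0.39. ATERDJ3B was at -1.40 and called with the covariate, and the list's median on the 9 h arrays was 0.07. The cytosolic chaperonin CCT, which folds actin and tubulin, had 1 increase among 8 tested genes. AT5G26360, its gamma subunit, had 359 and 331 at 3 h, against 134 and 132 at 1 h (1.31). That gene was also higher on the 9 h array with the high 25S signal (264 against 128 on the other), and with the covariate its difference was 0.78 and not called. For the listed HSP90 and HSP100 chaperones and heat shock factors 0 probe sets were named, so they are not described here.

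Other large decreases were outside these lists. AT5G12110, an EF1B subunit of the translation elongation factor, had 89.3 and 90.8 at 3 h, against 1502 and 1489 at 1 h (log2 difference -3.90 ± 0.18). At 21 h it had 667 and 571, and the log2 difference, 3 h minus 21 h, was -2.64. AT1G51380, an RNA helicase of the DEAD-box family, had 20.3 and 19.9 at 3 h, against 130.5 and 156 at 1 h (-2.32). SIS, named for its induction by salt, had 30.4 and 22.1 at 3 h, against 201 and 145 at 1 h (-2.30). MSRB5, which repairs oxidised methionine, had 168 and 143 at 3 h, against 658 and 767 at 1 h (-2.12). It was the 1 called gene among 12 tested glutaredoxins, thioredoxins and methionine sulphoxide reductases. MSRB5 was called with the covariate as well (-1.96), and the list's median on the 9 h arrays was 0.05. AT4G23680 and AT4G19430 had log2 differences of -2.38 and -2.16.

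**Figure D2:**
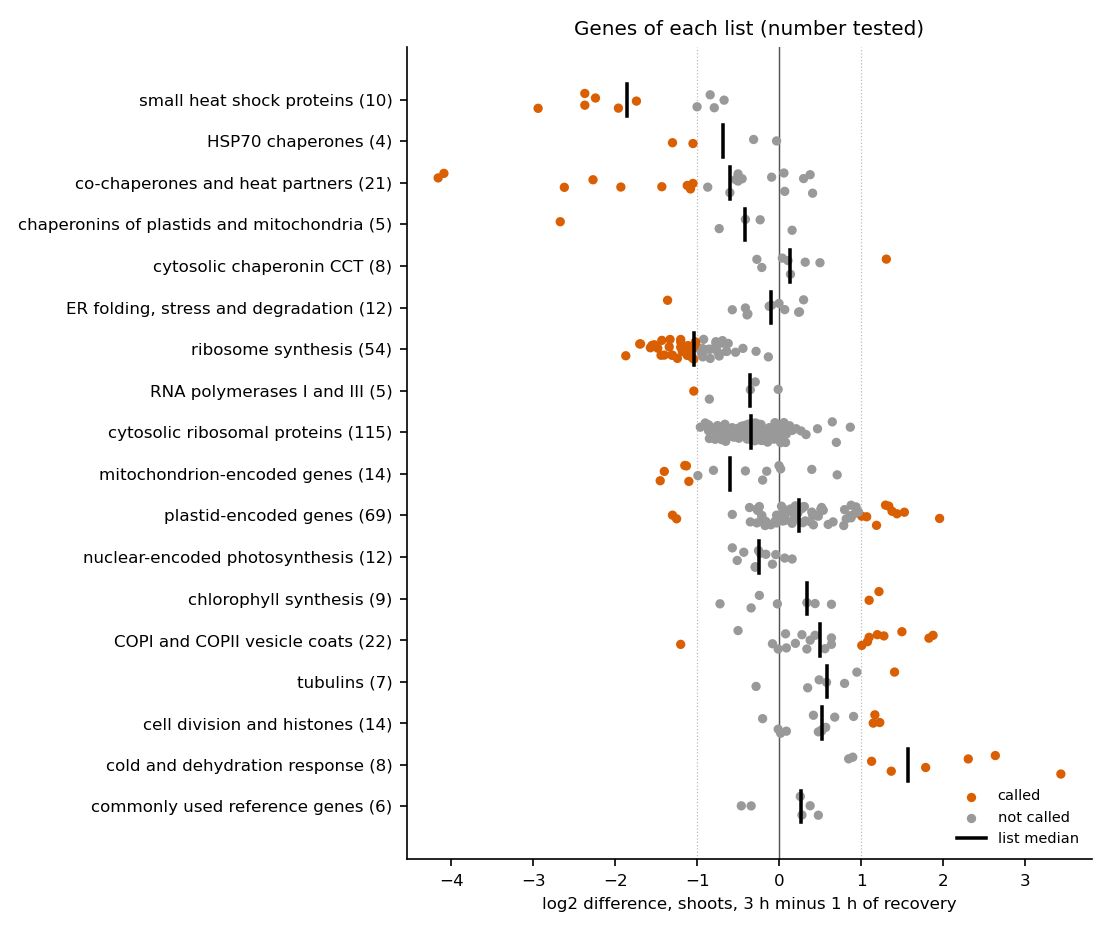
Log2 difference in shoots, 3 h minus 1 h of recovery, for each tested gene of the lists shown (1 probe set per gene; vertical jitter has no meaning). Orange points were called, grey points were not, and black bars are list medians: -1.85 for small heat shock proteins, -1.04 for ribosome synthesis and 1.58 for cold and dehydration response.

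Many genes for ribosome synthesis fell. Of 84 loci listed, 55 had a named probe set and 54 were tested: 31 fell and 0 rose, and the log2 difference was below 0 in all 54, with a median of -1.04 and a range from -1.87 to -0.13. Over all probe sets the share called lower was 2.57% and the median was 0.02. Because 19 tested members had been recognised among the called genes before the list was written, the count without them is also given: 12 of 35 fell, with a median of -0.86. AT1G23280, whose yeast relative is Mak16, had 48.7 and 32.4 at 3 h, against 163 and 187 at 1 h (-1.87 ± 0.17, adjusted p = 7.28e-09). AT4G28450, related to yeast Sof1, had 88.9 and 91.9 at 3 h, against 319 and 317 at 1 h (-1.70). AT2G44860, related to yeast Rlp24, had 219 and 195 at 3 h, against 633 and 634 at 1 h (-1.57 ± 0.09, adjusted p = 5.29e-12). The 3 h arrays lay below both 1 h arrays in each of these genes, which again came with every called decrease. AT2G40360, the relative of yeast Erb1 and human BOP1, had 279 and 307 at 3 h, against 687 and 949 at 1 h (-1.43).

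The mean of AT2G44860 was highest at 1 h of recovery among the shoot times given here. AT2G44860 averaged 349 ± 27.2 at 3 h of heat, 633 ± 0.631 at 1 h of recovery, 207 ± 17.3 at 3 h, 146 ± 4.35 at 9 h and 207 ± 19.1 at 21 h (SD, n = 2 each). In the comparison of 1 h of recovery against 3 h of heat, which shares the 1 h arrays, 18 of the 54 were higher and 1 lower (7.03% and 4.59% over all probe sets), with a median of 0.85. Against 21 h of recovery, with the 3 h arrays shared, 0 were called in either direction at 3 h and the median was 0.15. On the 9 h arrays the list's median difference between the replicates was 0.01. With the 25S covariate 30 were lower, 29 of them among the 31, and the median was again -1.04. With a constant of 42.9 the count was 17.

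The test of the tissue difference called 22 of the 54 genes, all with the lower log2 difference between times in shoots, against 2.85% of all probe sets. Without the members recognised among the called genes beforehand, it called 9 of 35. In roots over the same interval 1 gene rose and 0 fell, with a median of -0.07. AT5G08180, related to yeast Nhp2, had 116 and 111 at 3 h, against 278 and 313 at 1 h in shoots, and 294 and 287 at 3 h, against 264 and 253 at 1 h in roots. It fell in shoots (-1.30), differed by 0.16 in roots, and the shoot minus root difference was -1.46 (adjusted p = 1.57e-06). For AT1G23280 that difference was -1.70 (adjusted p = 2.24e-05), with 69.1 and 76.2 at 3 h, against 88.6 and 77.6 at 1 h in roots. In the fit with the 25S covariate the tissue difference was called for 22 of the 54 genes, recognised members included.

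Of 5 tested genes for RNA polymerases I and III, which transcribe ribosomal RNA and other small stable RNAs, AT3G25940 fell (62.4 and 57.2 at 3 h, 161 and 112 at 1 h; -1.04). Its call was lost without replicate 2 of 3 h (-0.99) and without replicate 1 of 1 h (-0.80). The large subunits NRPA2, NRPC1, NRPA1 and NRPC2 differed by -0.85, -0.35, -0.29 and -0.01 and were not called. AT3G25940 was at -1.27 and called with the 25S covariate, and the list's median on the 9 h arrays was 0.16. Among 115 tested genes for cytosolic ribosomal proteins 0 were called, and the median was -0.34, with 97 below 0. The lowest value was -0.96, for AT4G26230, which encodes a protein of the large subunit and had 828 and 813 at 3 h, against 1502 and 1725 at 1 h (adjusted p = 2.64e-09). The highest was 0.87, for AT5G48760. Leaving out replicate 1 of 1 h gave 4 decreases, leaving out replicate 1 of 3 h gave 1, and the 25S covariate gave 1. In roots 5 of the 115 rose and 0 fell, with a median of 0.05 (2.72% and 2.06% over all probe sets). The change between times differed between the tissues for 8 of the 115, in each with the lower log2 difference in shoots. Over all probe sets that share was 2.85%.

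**Figure D3:**
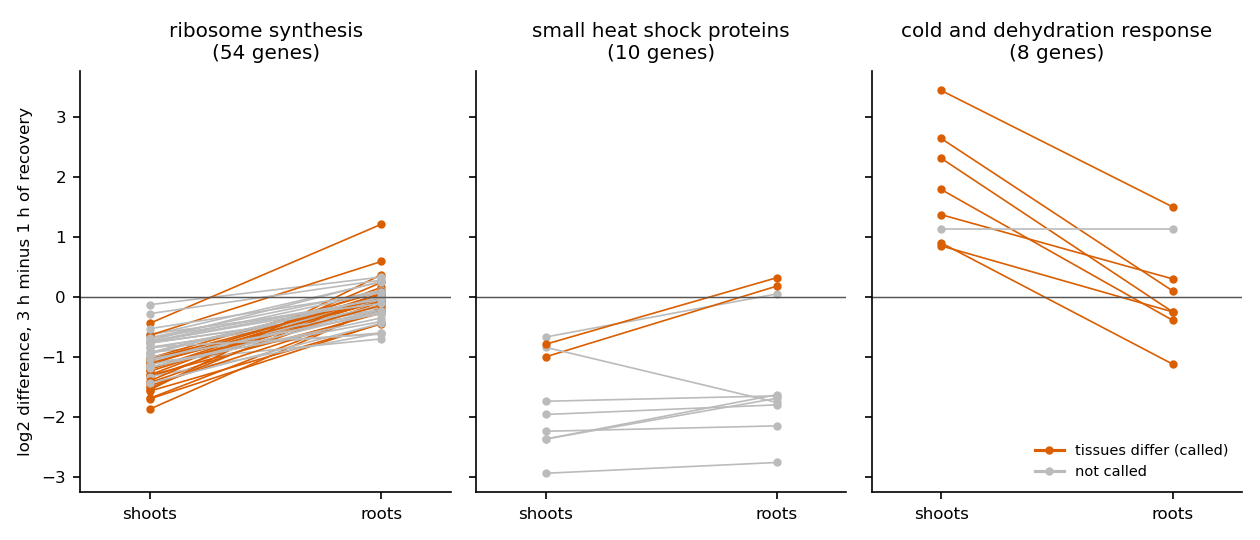
Log2 difference, 3 h minus 1 h of recovery, in shoots (left of each panel) and roots (right) for the genes of 3 lists, each line being 1 gene; orange lines are genes whose tissue difference was called (22 of 54, 2 of 10 and 7 of 8). The ribosome and cold lists include members recognised among the called genes before the lists were written. Without them the ribosome count was 9 of 35. The ribosome synthesis genes lie below 0 in shoots and around 0 in roots, and most small heat shock protein genes lie below 0 in both.

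Transcripts encoded in the mitochondrion were also lower at 3 h. Of 14 tested, 5 fell and 0 rose in shoots, with a median of -0.60, and 10 fell in roots, with a median of -1.07. Over all probe sets 2.57% fell in shoots and 2.06% in roots. The tissue difference was called for 3 of the 14, all with the higher log2 difference in shoots (2.6% of all probe sets). nad6, a subunit of respiratory complex I, had 79.1 and 97.3 at 3 h, against 253 and 265 at 1 h (log2 difference -1.45 ± 0.14, adjusted p = 2.98e-08). nad5, of the same complex, had 107 and 100.3 at 3 h, against 299 and 282 at 1 h (-1.40). The other called genes were ccb203 and cox2, at -1.15 and -1.13, and nad4L, another gene of complex I, at -1.10. The call of nad4L was lost without replicate 1 of 1 h (-0.95). Both nad6 and nad5 were above their 21 h levels of 30.4 ± 6.10 and 27.1 ± 5.13, by log2 differences of 1.27 and 1.60. Their probe sets are of a type that can detect several nearly identical transcripts. On the 9 h arrays the list's median difference was 0.14, and with the 25S covariate 6 genes were called lower. With a constant of 42.9 the count was 2.

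The largest increases included genes known from the response to cold. Of 33 loci of the list of cold and dehydration response, 8 were named and tested: 6 rose, 0 fell, and the median was 1.58. Over all probe sets 3.06% rose and 2.57% fell. Without 4 members recognised among the called genes beforehand, 2 of 4 rose. AT4G30650, of a small family of membrane proteins induced by cold and salt, had 949 and 705 at 3 h, against 48.7 and 87.7 at 1 h. Its log2 difference was 3.44 ± 0.22 (adjusted p = 2.54e-11), the largest increase among probe sets with 1 named gene. COR27, a cold-regulated gene with a daily rhythm, had 243 and 252 at 3 h, against 39.6 and 23.4 at 1 h (2.64 ± 0.20, adjusted p = 4.5e-10). Over the shoot series COR27 averaged 2.43 ± 1.37 at 3 h of heat, 31.5 at 1 h of recovery, 248 at 3 h, 112 at 9 h and 1.56 ± 1.76 at 21 h (n = 2 each), and its mean was highest at 3 h among these times. AT4G33980, the relative of COR27 known as COR28, had 156 and 137 at 3 h, against 41.9 and 28.3 at 1 h (1.79). COR15B and COR15A encode proteins that protect chloroplast membranes in frost. COR15B had 590.1 and 497 at 3 h, against 110.4 and 92.1 at 1 h (2.31), and COR15A had 107 and 69.2 at 3 h, against 29.4 and 24.3 at 1 h (1.37). The dehydrins COR47 and LTI30 were not called, at 0.85 and 0.90.

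The change between times differed between the tissues for 7 of the 8 cold genes, all with the higher log2 difference in shoots (2.6% of all probe sets). These 8 include the 4 members recognised among the called genes beforehand, so the count comes in part from that choice. The tissue difference is not one in level: LTI30 averaged 34.9 in shoots and 833 in roots at 3 h, and COR47 averaged 852 in shoots and 1634 in roots. In roots COR15B had 15.3 and 18.4 at 3 h, against 22.6 and 21.5 at 1 h, and its shoot minus root difference was 2.56 (adjusted p = 3.23e-07). In roots COR27 had 80.8 and 65.8 at 3 h, against 67.3 and 67.5 at 1 h, with a tissue difference of 2.54 (adjusted p = 1.33e-06). LTI30 fell in roots (-1.12), with 817 and 850.4 at 3 h, against 1657 and 2019 at 1 h. On the 9 h arrays the list's median difference was 0.27, and with the 25S covariate 5 of the 6 genes were still called. The call that was lost was that of COR15A (0.96, adjusted p = 0.0262).

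Genes of the clock were nearly absent from the named probe sets, with 2 tested and 0 called. GI, which peaks late in the day in plants kept in long days, had 447 on both arrays at 3 h and 311 and 286 at 1 h (log2 difference 0.57, adjusted p = 0.000253). AT5G52660 differed by -0.15. AT1G07050, which carries a CCT motif, a domain found in clock and flowering proteins, had 400.3 and 477 at 3 h, against 93.9 and 85.2 at 1 h (2.16). It averaged 2.02 ± 1.78 at 3 h of heat and 12.7 ± 1.42 at 21 h of recovery. Its roots had 5.86 and 3.51 at 3 h, against 6.07 and 5.41 at 1 h, and the tissues differed by 2.26 (adjusted p = 7.74e-07). Within the 9 h group it had 287 on replicate 1 and 325 on replicate 2.

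**Figure D4:**
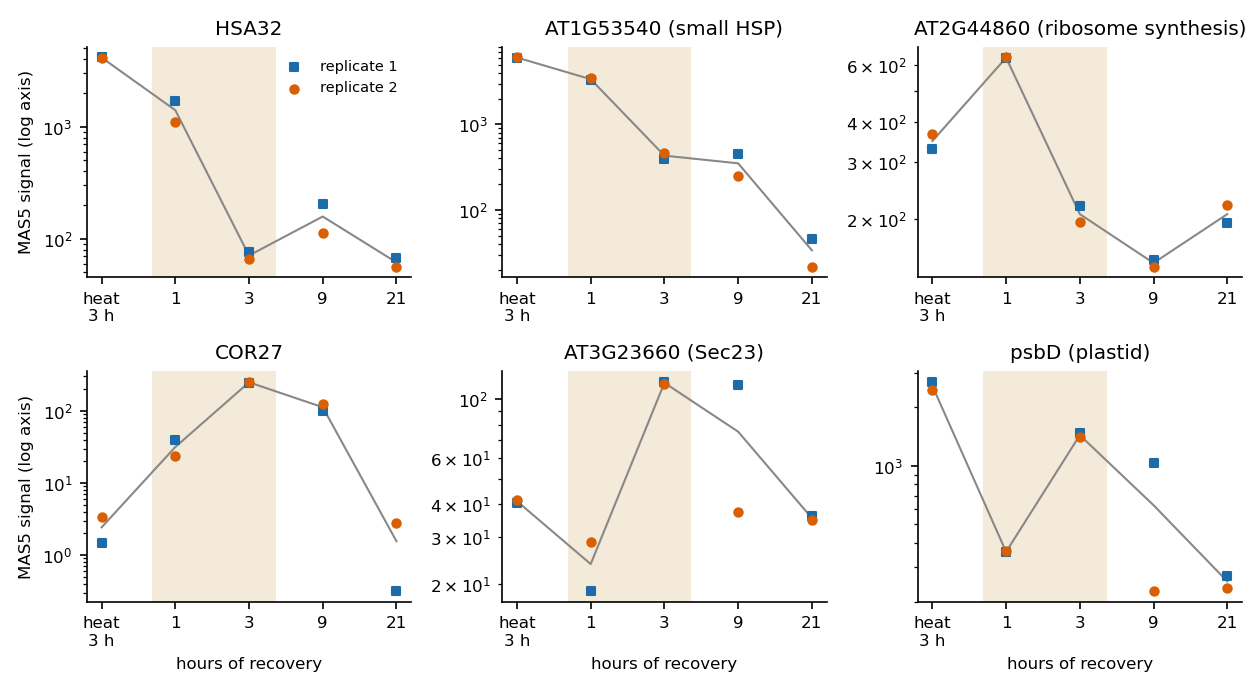
MAS5 signal (log axis, scaled to each gene) of 6 genes on each shoot array after 3 h of heat and 1, 3, 9 and 21 h of recovery, with squares for replicate 1, circles for replicate 2 and a line through the means; the shaded part is the interval described here. HSA32 and AT1G53540 fall in it, AT2G44860 peaks at 1 h, COR27 peaks at 3 h, and AT3G23660 and psbD differ between the replicates at 9 h (113 and 37.5; 1027 and 226).

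Genes of cell division and the cytoskeleton were higher at 3 h in small number. Of 14 tested genes of cell division and histones 3 rose and 0 fell (3.06% and 2.57% over all probe sets), with a median of 0.52. The histone H2B gene HTB2 had 139.9 and 108 at 3 h, against 43.0 and 49.4 at 1 h (log2 difference 1.23). HTB11, of the same family, whose members are nearly identical, had 201 and 192 at 3 h, against 70.7 and 93.3 at 1 h (1.17). UBC20, a ubiquitin-conjugating enzyme of mitosis, had 112 and 101 at 3 h, against 34.2 and 51.5 at 1 h (1.15). The calls of HTB11 and UBC20 were lost without replicate 1 of 1 h (0.99 and 0.92). KINESIN-12B, a motor of the plane of division, differed by 0.91. Among 7 tubulins TUB1 rose, with 117 and 98.4 at 3 h, against 30.9 and 36.7 at 1 h (1.41), and TUB5, TUB9 and TUB7 differed by 0.95, 0.80 and 0.58. Without replicate 1 of 1 h 2 tubulins were called. Within the 9 h group the median differences of the cell division genes and the tubulins were -0.02 and -0.09. In the fit with the 25S covariate the same 3 genes and the same tubulin were called, and with a constant of 42.9 both counts were 0.

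Several increases of similar size had no role given here. AT5G16250 had 239.8 and 269 at 3 h, against 24.8 and 25.0 at 1 h (log2 difference 2.89), and AT3G02640 had 213 and 178 at 3 h, against 15.5 and 22.2 at 1 h (2.81). Both also rose in roots (2.19 and 2.08). AT3G02120, AT3G12870 and AT4G02800 had log2 differences of 2.06, 2.05 and 1.91, with signals of 3.59 to 15.3 at 1 h. These 5 genes differed by at most 0.29 in size between the 9 h arrays. AT5G62360, an inhibitor of pectin methylesterase, had 653 and 543 at 3 h, against 131 and 162 at 1 h (1.95), and 4.16 and 9.41 at 21 h.

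Coat proteins of the vesicles that carry cargo between the endoplasmic reticulum and the Golgi were called in both directions, 8 higher and 1 lower among 22 tested, with a median of 0.50. The shares over all probe sets were 3.06% higher and 2.57% lower. AT3G23660, a Sec23 subunit of the COPII coat, had 116 and 114 at 3 h, against 18.8 and 28.8 at 1 h (log2 difference 1.88). AT3G63460, listed as SEC31B among its synonyms, had 92.3 and 108 at 3 h, against 24.1 and 17.0 at 1 h (1.83). AT4G32640 of the Sec24 family had 124 and 125 at 3 h, against 35.6 and 38.3 at 1 h (1.50), and AT2G30050, a Sec13 subunit, had 167 and 166 at 3 h, against 64.9 and 59.8 at 1 h (1.28). The gene that fell was AT3G62560, of the SAR1 GTPase family that starts coat assembly, with 187 and 224 at 3 h, against 465 and 506 at 1 h (-1.20).

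Within the 9 h group AT3G63460 had 126 where 25S was high and 26.7 where it was low, and AT3G23660 had 113 and 37.5. With the covariate 3 of the 8 increases were still called: AT3G23660 at 1.17, AT4G32640 at 1.20 and AT2G30050 at 1.12. AT3G63460 was at 0.72 (adjusted p = 0.0427). The decrease of AT3G62560 was -1.16 with the covariate and its 9 h arrays had 212 and 228. With a constant of 42.9 the list had 5 increases and 1 decrease. Other large increases with a high value on the first 9 h array were TMT1, a sugar transporter of the vacuole (205 and 191 at 3 h, 45.8 and 35.8 at 1 h; 2.02), AT1G01300 (1.96) and AT2G20440 (1.90). Within the 9 h group TMT1 had 258 and 111, AT1G01300 had 295 and 125, and AT2G20440 had 32.9 and 2.43. With the covariate their differences were 1.32, 1.29 and 1.02, all called.

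Of 69 tested genes encoded in the plastid, 9 rose and 2 fell, with a median log2 difference of 0.24. Over all probe sets 3.06% were higher and 2.57% lower, so the share of plastid genes that fell was near that of all probe sets. psbD, for the D2 protein of photosystem II, had 1470.2 and 1398 at 3 h, against 358 and 363 at 1 h (1.96 ± 0.38, adjusted p = 0.0002). psaC, of photosystem I, had 1268 and 1181 at 3 h, against 516 and 337 at 1 h (1.53), psbE, of photosystem II, had 2378 and 2108 at 3 h, against 912 and 799 at 1 h (1.38), and ycf3, an assembly factor of photosystem I, had 851 and 939.8 at 3 h, against 390.4 and 266 at 1 h (1.44). The arrays of the times did not overlap in these 4 genes, but this held for every called probe set and is no separate support. Within the 9 h group psbD had 1027 and 226, psaC 1368 and 467, psbE 1394 and 869, and ycf3 670.4 and 376, each higher on the array with the high 25S signal. In the fit with the 25S covariate 0 of the 9 increases were called, 1 other gene was, and the list's median was 0.00. The covariate turned the sign of psbA, for the D1 protein of photosystem II, to -0.08 (adjusted p = 0.829), against 1.07 without it. psbA had 1907 and 2117 at 3 h, against 1163 and 783 at 1 h, and 2514 and 860.1 on the 9 h arrays. Its call was also lost without replicate 2 of 3 h (0.99) and without replicate 2 of 1 h (0.78). The decreases were rps14, of the small ribosomal subunit, with 112 ± 16.9 at 3 h and 292 ± 43.1 at 1 h (SD, n = 2 each; log2 difference -1.30), and ndhF, of the NADH dehydrogenase-like complex, with 29.5 and 35.6 at 3 h, against 94.6 and 89.5 at 1 h (-1.25). Both were called with the covariate too, at -1.03 and -1.50. Leaving out replicate 1 of 1 h, the array with the higher 25S signal of that group, gave 17 increases in place of 9.

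**Figure D5:**
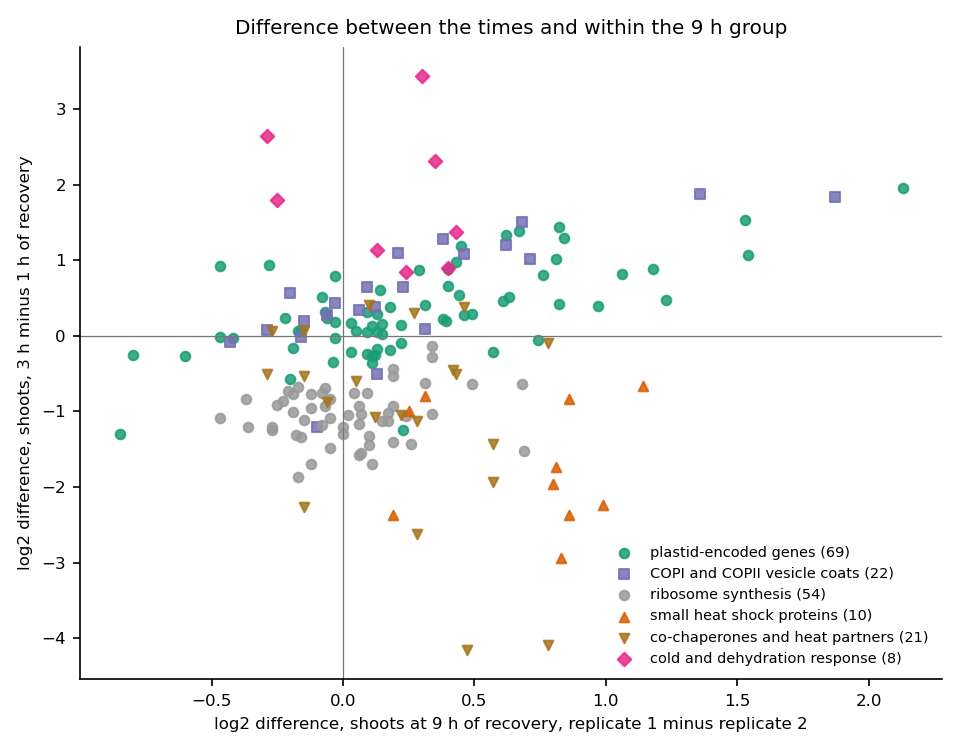
Each point is a gene of 6 lists, with its log2 difference between the 2 shoot arrays of 9 h of recovery (replicate 1, 25S signal 1270.3, minus replicate 2, 25S signal 88.6) on the horizontal axis and its log2 difference in shoots, 3 h minus 1 h of recovery, on the vertical axis. Plastid-encoded and vesicle coat genes with large increases lie to the right, the ribosome synthesis genes lie below 0 around the middle, and the small heat shock proteins lie below 0 to the right.

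Nuclear genes for photosynthesis gave 0 calls among 12 tested, with a median of -0.24. LHCB4.2, a light-harvesting protein, had 3469 and 3424 at 3 h, against 5209 and 5049.9 at 1 h (log2 difference -0.57, adjusted p = 0.0245). LHCB4.3, LHCB4.1 and PSAN differed by -0.51, -0.43 and -0.29. Of 9 tested genes for chlorophyll synthesis 2 rose, both recognised among the called genes before the list was written. HEME2, a step of porphyrin synthesis, had 553 and 563 at 3 h, against 262 and 247 at 1 h (1.10), and hemf2 had 29.4 and 37.0 at 3 h, against 8.87 and 7.23 at 1 h (1.22). Within the 9 h group HEME2 had 553 and 244 and hemf2 31.6 and 20.0, and neither was called with the covariate (0.41 for HEME2 and 1.00, just under the threshold of size, for hemf2). AT1G74470, geranylgeranyl reductase, differed by -0.72 and LIL3:1 by 0.64.

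Other lists had few calls or none, where 3.06% of all probe sets were higher and 2.57% lower. ATSPS4F, a sucrose phosphate synthase, was the 1 increase among 12 genes for sugar transport and synthesis, with 158 and 166 at 3 h, against 62.1 and 82.5 at 1 h (1.07). Its level stayed far below that of 21 h (1081 ± 25.4), with a log2 difference of -2.66, and its call was lost without replicate 1 of 1 h (0.89). WES1, which joins auxin to amino acids, was the 1 decrease among 8 auxin response genes, with 50.3 and 38.7 at 3 h, against 105 and 101 at 1 h (-1.05), and was not called without replicate 2 of 3 h (-0.90). ATSPS4F (1.08) and WES1 (-1.17) were also called with the 25S covariate, and the medians of their lists on the 9 h arrays were 0.08 and 0.03. The sugar list then had 1 decrease too, SAG29, a sugar transporter of the SWEET family, at -1.43, against -0.35 and no call without the covariate. SAG29 had 31.3 and 2.32 on the 9 h arrays. Genes of wall loosening (23 tested), of glutathione transferases and glucosyltransferases (52), of autophagy (11), of calmodulin-like and rapid stress genes (19) and of flavonoid and phenylpropanoid synthesis (3) had 0 calls by limma, with medians of 0.10, 0.05, -0.02, 0.02 and -0.01. Over all probe sets limma gave 7611 with an unadjusted p under 0.05. The 6 tested reference genes of common use had 0 calls and differed by -0.46 to 0.48.

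Roots over the same interval shared part of the change. In roots 456 probe sets were higher (2.72%) and 345 lower (2.06%). Of those lower in shoots 94 were lower in roots too, which is 21.8% of the shoot calls and 27.2% of the root calls. Of those higher in shoots 125 were higher in roots, 24.4% and 27.4% of the lists. The opposite direction was called in roots for 1 of the shoot decreases and 2 of the shoot increases. The test of the difference between tissues called 437 probe sets with a higher log2 difference in shoots (2.6%) and 479 with a lower one (2.85%). Among named genes the largest tissue difference below 0 was that of AT5G62340, an inhibitor of pectin methylesterase. It had 5.68 and 12.2 at 3 h, against 10.2 and 12.1 at 1 h in shoots, and 507 and 465 at 3 h, against 42.7 and 58.0 at 1 h in roots (-3.21, adjusted p = 9.84e-08). Shoots had signals near the added constant at both times while roots rose, as they did for its neighbour by locus number, AT5G62330 (-2.28), and for AT3G27950, of the GDSL lipase family (-2.10). MSRB5 fell in shoots, whereas roots had 855 and 1026 at 3 h, against 669.8 and 840.1 at 1 h (-2.44). Its relative MSRB9 had 35.4 and 36.8 at 3 h, against 34.9 and 50.0 at 1 h in shoots, and 479 and 438 at 3 h, against 94.2 and 100.1 at 1 h in roots (-2.29). AT5G01720 rose in shoots, with 87.0 and 92.4 at 3 h, against 30.8 and 22.9 at 1 h (1.43). Its roots had 69.5 and 56.2 at 3 h, against 134 and 113 at 1 h, and the tissue difference was 2.30. psbD had 91.8 and 105 at 3 h, against 135 and 151 at 1 h in roots, where the 25S signal was also higher at 3 h (2134 and 2320.4, against 867 and 813 at 1 h). Its tissue difference was 2.45 (adjusted p = 0.00192), and 1.75 with the covariate (adjusted p = 0.000132).

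Shoots at 3 h of recovery differed from those at 21 h in 955 probe sets that were higher (5.69%) and 789 that were lower (4.7%). That excess of higher calls turned with the scaling: 812 were higher and 934 lower under 75th percentile scaling, and 790 higher and 814 lower under quantile normalization. The 21 h group was harvested at the hour of day at which the heat had begun, so the difference includes time of day. Among the small heat shock proteins 3 of 10 were higher at 3 h and 2 were lower. Among the cold genes 6 of 8 were higher, with a median of 3.75. Among lower genes was SAG29, with 3.91 and 4.33 at 3 h, against 257 and 261 at 21 h (-4.18).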

How the data were processed

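Expression was measured on single-channel Affymetrix arrays of biotin-labelled total RNA. The values used are the deposited MAS5 signal, a linear intensity made by the authors, per the submitters' processing notes; the version is not given in the sources used here. From the values, the trimmed mean was 100 on every array, so no further scaling was applied. Arrays give no read depth; the number of arrays, 2 per group, limits the precision.

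Of 22810 probe sets, 64 controls were left out. A single gene was named for 13513 of the other 22746 by the platform table, several for 503 (not named here) and none for 8730; unnamed probe sets stayed in all tests. Names were updated through RefSeq for 13436 of the 13513 by gene id and for 48 by locus. Roles and family names of loci that the tables give only by code are background knowledge. No sequence or coordinates are used.

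The 25th percentile of signal was taken on each array, and its median, 10.7, was the constant added. Probe sets entered the tests if some group among the 16 had both of its arrays over the 40th percentile, which left 16782. Group means over 32 arrays were fitted with limma 3.58.1 in R 4.3.3 (lmFit, eBayes with a trend), with 16 residual degrees of freedom, a median prior of 8.24 and Benjamini-Hochberg adjustment over all kept probe sets. SE is the moderated standard error. Lists used 1 probe set per locus (highest mean over all arrays) and are described by counts and medians. Named genes are the 15 largest called changes each way, 5 each way for the tissue difference and up to 4 per list, or all of a short list; AT2G29500, ATHSP22.0, AT4G21870, AT5G47600, AT2G40360, AT5G08180, AT3G62560, COR15A, COR47, LTI30, rps14, ndhF, nad4L and psbA were added after their values were seen. The code was tested on simulated data. The members and lists were chosen with earlier results of these data known. Alternatives were the constant, the filter, the scaling, the arrays in the fit, the variance trend and a replicate block. Each array of the groups compared was also left out in turn, but not those of other groups, such as 9 h of recovery. The 25S covariate and the lists without recognised members were chosen after seeing the data.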

Additional observations from a re-analysis of the deposited data

Results flagged for a closer look

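The log2 difference between 3 h and 1 h of recovery was not the same in shoots and roots for 36 of the genes named, by limma's test of the shoot minus root difference. The value given after each gene is that difference on the log2 scale, below 0 where the change between the times was the lower one in shoots; it does not compare levels between tissues. Genes of ribosome synthesis and a ribosomal protein had the lower change in shoots: AT1G23280 (-1.70), AT4G28450 (-1.26), AT4G04940 (-1.50), AT2G44860 (-1.12), AT2G40360 (-1.35), AT5G08180 (-1.46) and AT2G37600 (-1.21). So had some chaperones and helpers: AT4G21870 (-1.18), AT5G47600 (-1.12), AT5G16070 (-1.23), ATERDJ3B (-1.04) and CRT1b (-1.06). Among co-chaperones and heat partners the difference was called for 3 genes, not named here, all with the higher change in shoots. Other genes with the lower change in shoots were AT5G12110 (-1.90), AT1G51380 (-1.86), SIS (-1.12), AT4G19430 (-2.02), MSRB5 (-2.44), MSRB9 (-2.29), AT5G62340 (-3.21), AT5G62330 (-2.28), AT3G27950 (-2.10) and ndhF (-1.28). The cold genes had the higher change in shoots: AT4G30650 (1.93), COR27 (2.54), COR15B (2.56), AT4G33980 (2.18), COR15A (1.07), LTI30 (2.02) and COR47 (1.10). Plastid genes with the higher change in shoots were psbD (2.45), ycf3 (1.22) and psbE (1.50). The others were AT1G07050 (2.26), AT3G02120 (1.10), AT5G62360 (1.01) and AT5G01720 (2.30). With the 25S covariate the difference was no longer called for COR15A (0.88), AT5G62360 (0.85) and ycf3 (0.91). On the 4 root arrays AT4G19430 had at most 6.05, AT1G07050 at most 6.07 and COR15A at most 7.05, all under the added constant, so these 3 differences rest on the shoots. On the 4 shoot arrays AT5G62330 had at most 1.69, so its difference rests on the roots.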

How the results depend on the processing

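Among called values of the genes named, the sign turned for 1 under the alternatives run: psbA was at -0.08 with the 25S covariate. The larger share of calls changed side in shoots with that covariate (358 higher, 438 lower) and in roots with the larger constant. For the tissue difference it changed side without replicate 1 of 1 h in shoots. For 3 h against 21 h it did so under 75th percentile scaling (812 higher, 934 lower) and quantile normalization (790 and 814). The cause was not tested in any of these. Adding 42.9 in place of 10.7 gave 230 probe sets higher and 197 lower in shoots, 177 and 188 in roots, 180 and 208 for the shoot minus root difference, and 516 and 515 for 3 h against 21 h of recovery. That constant lowers the size of low-signal differences by construction. Single arrays were left out only from the groups compared. Leaving out 1 array at a time gave 530 to 600 higher and 439 to 466 lower in shoots, 440 to 506 and 344 to 385 in roots, 391 to 542 and 465 to 529 for the tissue difference, and 947 to 1018 and 767 to 855 against 21 h. Same-numbered deviations correlated at 8.16e-05 for 3 h and 1 h in shoots, and at -0.102 to 0.121 over 28 pairs of shoot groups. These values show little shared replicate effect. They cannot exclude that the replicate numbers pair the samples, on which the labels are silent. A fit with the number as a replicate block gave 513 higher and 431 lower in shoots. Of the genes named, 17 lost their shoot call with the larger constant and 9 with the 25S covariate besides psbA, and 6 gained one with the covariate. With the larger constant the short counts also moved, to 1 decrease for HSP70 proteins, 1 decrease for plastid genes, 1 increase for chlorophyll synthesis and 0 calls for RNA polymerases, sugar and auxin genes. Only 2 arrays per group limit the precision, and signals under about 10.7 carry little information on size.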
